A study of Homo sapiens with 12 samples.

Results

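The NF-κB/Rel family of transcription factors is encoded by 5 genes, RELA, RELB, REL, NFKB1 and NFKB2, and their transcripts were followed here through TNFα treatment of HEK293 cells with and without the inhibitor Senexin B. The genes were taken by symbol, 5 of the 56634 gene symbols in the deposited count table, and all 5 were among the 14822 genes with enough counts to be tested. HEK293 is a transformed human embryonic kidney line, and Senexin B inhibits CDK8 and CDK19, the kinases of the Mediator complex. The groups, with 3 libraries each, were TnfSnxB (1 µM Senexin B for 1 h, then 10 ng/mL TNFα for 2 h), Tnf (0.1% DMSO for 1 h, then 10 ng/mL TNFα for 2 h), SnxB (1 µM Senexin B for 3 h, no TNFα) and control (0.1% DMSO for 3 h, no TNFα). All cells were thus at 3 h after the first addition when they were collected, and the line and medium were common to every group. The labels call the libraries biological replicates without saying which cultures they came from, so p-values measure the spread between these libraries.

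NF-κB acts as dimers of these proteins, held in the cytoplasm of resting cells by IκB inhibitors. TNFα binding to its receptor activates the IκB kinase (IKK) complex, IκB is degraded, and the freed dimers enter the nucleus, where their targets include genes of the pathway itself. RELA (p65), RELB and REL (c-Rel) carry transactivation domains, whereas NFKB1 and NFKB2 encode the precursors p105 and p100, whose processed forms p50 and p52 bind DNA without such a domain. RELA with p50 is the classical dimer, and RELB with p52 is the dimer of the slower non-canonical arm.

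Promoter sequences are shown first because 4 of the 5 genes rose with TNFα and 3 of those 4 have a window to search for the site that the factors themselves bind. RefSeq promoter windows (build GRCh38.p14, 250 bases before to 50 after each start) matched 4 members, and RELB was not among them. The κB consensus decamer, searched on both strands with overlapping matches allowed, was found in the single window of REL, in 1 of 2 windows of NFKB1, in 2 of 3 windows of NFKB2 and in 0 of 2 windows of RELA. Over all windows of the same length it was found in 5.91% of 35116, and 7.09% of 27305 genes had at least 1 window with it. A match is a description of letters, not a measured binding site. Capitals mark the matched letters in the sequences that follow, each 5′ to 3′ on the strand of the gene.
REL, chr2:60881401-60881550, plus strand: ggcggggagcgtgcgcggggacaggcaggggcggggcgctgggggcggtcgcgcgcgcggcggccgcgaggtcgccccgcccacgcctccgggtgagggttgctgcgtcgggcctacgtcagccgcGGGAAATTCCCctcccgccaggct
NFKB1, chr4:102501201-102501350, plus strand: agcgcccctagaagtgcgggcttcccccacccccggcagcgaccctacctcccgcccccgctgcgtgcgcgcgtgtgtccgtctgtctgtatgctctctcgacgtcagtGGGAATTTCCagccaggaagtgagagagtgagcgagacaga
NFKB2, middle window, chr10:102394464-102394487, plus strand: acgtcatGGGAATTCCCCcctccg
NFKB2, middle window, chr10:102394494-102394515, plus strand: cgagaaGGGGCTTTCCcggccc
NFKB2, downstream window, chr10:102395561-102395710, plus strand: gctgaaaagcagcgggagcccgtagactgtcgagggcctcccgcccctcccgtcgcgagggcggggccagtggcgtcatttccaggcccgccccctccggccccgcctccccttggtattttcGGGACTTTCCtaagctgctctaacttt
RELA, chr11:65663065-65663166, minus strand: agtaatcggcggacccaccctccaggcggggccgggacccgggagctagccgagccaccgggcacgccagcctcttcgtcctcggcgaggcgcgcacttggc

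In REL the capitals cover a pair of overlapping matches, one on each strand, that begin 47 and 46 bases before the RefSeq start. The single match of NFKB1 begins 49 bases before its start, and the last match of NFKB2 begins 21 bases before the downstream start.

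Libraries held 8705277 to 50943310 counts, the deepest being Tnf library 2, whose total was 4.87-fold the median total of the other libraries. Levels are given as CPM, counts scaled to sequencing depth with library sizes adjusted by TMM, and 3 counts corresponded to 0.0589 to 0.345 CPM, a limit that covers counting error only. Of 7 markers set for HEK293, 5 averaged at least 1 CPM, while 0 of 6 leukocyte and 0 of 3 endothelial markers did, with CD3E and CDH5 at 0 counts. Of 5 fibroblast markers 2 did on the mean of all 12 libraries, COL1A1 at 13.7 to 17.4 CPM and COL3A1 at 0.944 to 2.22 CPM over libraries, with DCN at 0 counts. The summed level of the 5 was 15.2 to 17.1 CPM in TnfSnxB, 14.8 to 16.4 in Tnf, 17.6 to 19.2 in SnxB and 15.9 to 16.9 in control libraries. In TnfSnxB the library with number 1 stood apart from numbers 2 and 3. Chi-square per degree of freedom was 5.79 and 5.52 between library 1 and the other two, 1.21 between those 2, and 1.07 to 1.59 within the other groups. The difference between them followed transcript GC content, which touches each value of TnfSnxB given below. Overlap between the libraries of groups is given below only as a description, because the share of all tested genes without overlap was not counted.

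RELB was the subunit gene with the largest TNFα effect of the 5. It lies at chr19:45001430-45038198 on the plus strand (GRCh38, GENCODE 29). RELB had 48.8, 40.04 and 37.2 CPM in TnfSnxB libraries, 48.5, 49.2 and 51.6 CPM in Tnf libraries, 5.81, 4.83 and 6.03 CPM in SnxB libraries, and 3.65, 5.67 and 3.62 CPM in control libraries. Every library with TNFα stood well above every library without it, and in bulk RNA a higher level per cell and a larger number of responding cells cannot be told apart. The low levels rest on few reads, 51 to 57 counts in SnxB libraries and 42 to 56 counts in control libraries.

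REL, at chr2:60881521-60931610 on the plus strand, encodes c-Rel, best known from lymphocytes. REL had 27.5, 34.7 and 34.1 CPM in TnfSnxB libraries, 27.5, 24.6 and 24.7 CPM in Tnf libraries, 18.2, 17.8 and 14.5 CPM in SnxB libraries, and 15.8, 15.4 and 16.8 CPM in control libraries. Libraries with TNFα did not overlap those without it, and the lowest TnfSnxB library, number 1, lay just above the highest Tnf library. In GENCODE 29, 5702 of the 13170 exon bases of REL, 43.3%, also belong to AC010733.2, a non-coding gene on the same strand, so the level of REL is uncertain.

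RELA lies at chr11:65653596-65663094 on the minus strand. RELA had 82.1, 79.4 and 81.1 CPM in TnfSnxB libraries, 87.8, 87.7 and 88.7 CPM in Tnf libraries, 83.9, 81.5 and 73.0 CPM in SnxB libraries, and 80.5, 84.8 and 77.3 CPM in control libraries. The Tnf libraries were the highest of the 12, by a small margin, and the other groups overlapped one another.

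NFKB1, at chr4:102501329-102617302 on the plus strand, encodes p105, which also serves as an IκB-like inhibitor before processing. NFKB1 had 95.7, 99.9 and 95.0 CPM in TnfSnxB libraries, 89.8, 93.0 and 90.6 CPM in Tnf libraries, 41.7, 43.1 and 48.0 CPM in SnxB libraries, and 44.4, 39.2 and 40.9 CPM in control libraries. Libraries with TNFα were far from those without it, and TnfSnxB libraries lay narrowly above Tnf libraries without overlap.

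NFKB2, at chr10:102394110-102402529 on the plus strand, encodes p100, which likewise inhibits dimers until it is processed. NFKB2 had 86.4, 83.6 and 73.5 CPM in TnfSnxB libraries, 98.1, 93.3 and 90.3 CPM in Tnf libraries, 27.6, 27.9 and 29.8 CPM in SnxB libraries, and 26.9, 26.6 and 26.8 CPM in control libraries. The 4 groups did not overlap, and ran from Tnf as the highest through TnfSnxB and SnxB to control as the lowest.

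**Figure D1:**
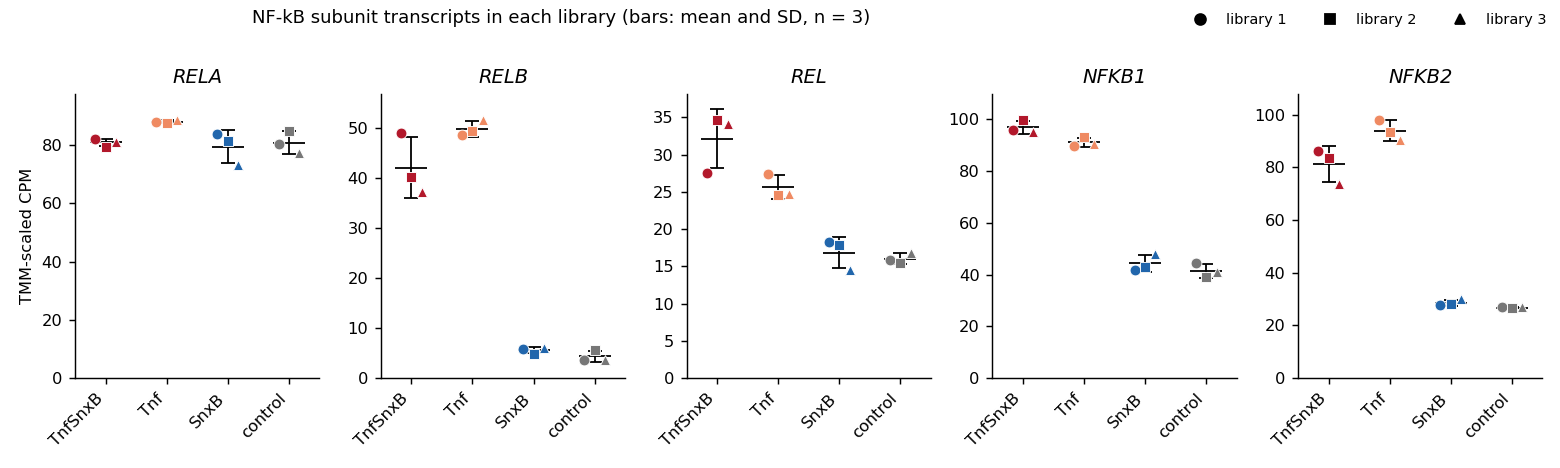
TMM-scaled CPM (y axes, linear, from 0) of the 5 subunit genes in each of the 12 libraries, 1 panel a gene and groups in the order TnfSnxB, Tnf, SnxB and control on the x axis, with points for libraries and bars for the group mean and SD (n = 3). RELB, REL, NFKB1 and NFKB2 lie higher in all libraries with TNFα than in all libraries without it, whereas the RELA panel spans only 73.0 to 88.7 CPM.

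The first comparison, Tnf against control, asks what 2 h of TNFα did without the inhibitor. Both precursors rose, as did RELB and REL, and RELA did not pass the test. With edgeR's quasi-likelihood test and Benjamini-Hochberg adjustment over all tested genes, 4 of 5 subunit genes were called at an adjusted p under 0.05, all higher, against 2.02% of the 14822 genes (1.43% higher and 0.594% lower). RELB averaged 49.8 ± 1.61 CPM in Tnf and 4.31 ± 1.18 CPM in control libraries (SD, n = 3 each), a log2 fold change of 3.55 (SE 0.118, 11.7-fold, adjusted p = 1.33e-19, edgeR) and the rank 7 of all tested genes from the highest. NFKB2 averaged 93.9 ± 3.94 CPM in Tnf and 26.8 ± 0.145 CPM in control libraries, a log2 fold change of 1.81 (SE 0.0633, adjusted p = 4.79e-19, edgeR) at rank 21. These were the steepest responses of the family.

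NFKB1 averaged 91.1 ± 1.66 CPM in Tnf and 41.5 ± 2.64 CPM in control libraries, a 2.20-fold rise (log2 1.14, SE 0.0561, adjusted p = 3.07e-15, edgeR) at rank 42. REL averaged 25.6 ± 1.61 CPM in Tnf and 16.0 ± 0.735 CPM in control libraries, a 1.57-fold rise (log2 0.66, SE 0.0898, adjusted p = 1.32e-05, edgeR) at rank 115. Tested against a change of at least 1.5-fold instead of any change, the call of REL was lost (adjusted p = 1). RELA averaged 88.1 ± 0.569 CPM in Tnf and 80.8 ± 3.80 CPM in control libraries, with a log2 fold change of 0.12 (95% interval 0.02 to 0.23, adjusted p = 0.338, edgeR). The RELA libraries of these groups did not overlap, yet the difference missed the threshold, while it passed with only these groups in the fit (adjusted p = 0.0449) and without TnfSnxB library 1 (adjusted p = 0.0385).

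With the inhibitor present, TnfSnxB against SnxB, the same 4 subunit genes were higher. The count was 4 of 5, against 14.2% of all tested genes called (7.38% higher and 6.83% lower). RELB averaged 42.0 ± 6.08 CPM in TnfSnxB and 5.56 ± 0.639 CPM in SnxB libraries, a 7.49-fold rise (log2 2.91, SE 0.124, adjusted p = 9.17e-17, edgeR). NFKB2 averaged 81.2 ± 6.78 CPM in TnfSnxB and 28.5 ± 1.21 CPM in SnxB libraries, a 2.84-fold rise (SE 0.0672 on the log2 scale, adjusted p = 2.64e-16, edgeR). NFKB1 and REL were the remaining members that rose.

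NFKB1 averaged 96.9 ± 2.63 CPM in TnfSnxB and 44.3 ± 3.32 CPM in SnxB libraries, a 2.19-fold rise (log2 1.13, adjusted p = 9.68e-15, edgeR). REL averaged 32.1 ± 3.97 CPM in TnfSnxB and 16.8 ± 2.05 CPM in SnxB libraries, a 1.93-fold rise (log2 0.95, adjusted p = 3.08e-08, edgeR). With library 1 as the single TnfSnxB library, which assumes that it varies like the other groups, the log2 changes were 3.14 for RELB, 1.60 for NFKB2, 1.11 for NFKB1 and 0.71 for REL, and all 4 calls held. RELA averaged 80.9 ± 1.34 CPM in TnfSnxB and 79.4 ± 5.71 CPM in SnxB libraries, a log2 difference of 0.03 (95% interval -0.09 to 0.14, adjusted p = 0.796, edgeR).

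**Figure D2:**
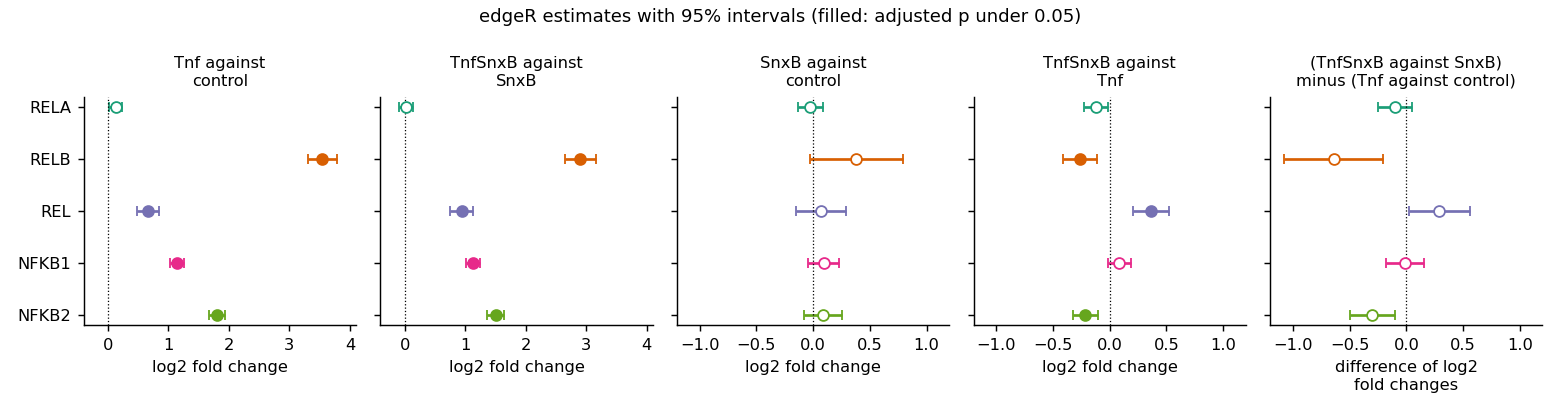
edgeR log2 fold changes of the 5 subunit genes with 95% intervals (x axes, in log2 units; the first 2 panels share a wider scale), 1 panel a comparison, filled where the adjusted p is under 0.05. The first 2 panels show 4 filled points each, the SnxB against control panel and the last panel none, and TnfSnxB against Tnf has RELB and NFKB2 lower at -0.26 and -0.21 and REL higher at 0.36.

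Senexin B alone, SnxB against control, gave no called subunit gene: 0 of 5 by edgeR, 0 of 5 at an unadjusted p under 0.05 and 0 of 5 by DESeq2, against 2.03% of all tested genes called (0.344% higher and 1.69% lower). The widest interval was that of RELB, the gene with the fewest counts, with a log2 difference of 0.38 (95% interval -0.03 to 0.79, adjusted p = 0.471, edgeR). The intervals of the other members were narrower, -0.15 to 0.29 for REL, -0.04 to 0.23 for NFKB1, -0.08 to 0.25 for NFKB2 and -0.14 to 0.09 for RELA. NFKB2 libraries did not overlap between these groups, at 28.5 ± 1.21 CPM in SnxB and 26.8 ± 0.145 CPM in control libraries, but its adjusted p was 0.755 (edgeR).

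Between the 2 groups given TNFα, TnfSnxB against Tnf, the members split: REL was higher, RELB and NFKB2 were lower, and RELA and NFKB1 did not pass. This was 3 of 5, where 27.2% of all tested genes were called (13.3% higher and 13.9% lower). With TnfSnxB library 1 alone the calls over the whole table fell to 403 genes, against 4029 with all libraries. REL had a log2 difference of 0.36 (SE 0.0776, adjusted p = 0.00123, edgeR), RELB one of -0.26 (SE 0.0738, adjusted p = 0.00991) and NFKB2 one of -0.21 (SE 0.053, adjusted p = 0.0039). NFKB1 differed by 0.08 (95% interval -0.02 to 0.18, adjusted p = 0.219, edgeR) and RELA by -0.12 (95% interval -0.23 to -0.02, adjusted p = 0.0703). RELA libraries of these groups did not overlap, whereas those of RELB did, and the share of all tested genes without overlap was not counted.

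These differences moved with transcript GC content and with the libraries. Over the 13419 tested genes with a known GC content, 90.5% of those tested, Spearman's rho between GC and the log2 difference TnfSnxB against Tnf was -0.706, across genes that share the same 6 libraries and are not independent replicates. It was -0.171 with TnfSnxB library 1 as the only TnfSnxB library. A trend with GC was not limited to this comparison. With all libraries, rho was 0.274 for Tnf against control, 0.0549 for SnxB against control and -0.635 for TnfSnxB against SnxB. RELB at 65.4% GC and NFKB2 at 62.4% are among the most GC-rich transcripts, at the percentiles 96.9 and 91.6 of tested genes, and REL at 38.7% is among the poorest, at the percentile 10.4.

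Genes within 1 GC point of RELB had a median log2 difference of -0.25 (n = 318), those near NFKB2 one of -0.20 (n = 542), and those near RELA one of -0.13 (n = 798). The values of these 3 members were close to those medians, at -0.26, -0.21 and -0.12. REL lay above its neighbours, 0.36 against a median of 0.17 (n = 981), and NFKB1, at 50.1% GC, had 0.08 against -0.03 (n = 796). With a correction for GC and length, only REL was still called (log2 0.20, adjusted p = 0.0262, edgeR). RELB and NFKB2 were then both at -0.01 (adjusted p = 0.927 and 0.902, edgeR). That correction was fitted to these same libraries and brought rho to -0.0169. It removes any difference that runs with GC or length, a treatment effect included. Its values are therefore no separate check on the comparison with neighbours, and the origin of the trend was not tested. With TnfSnxB library 1 alone, the differences of REL, RELB and NFKB2 were 0.13, -0.02 and -0.12, and 0 of 5 members were called. Without that library, REL reached 0.45, RELB -0.36 and NFKB2 -0.25, and RELA was called too (adjusted p = 0.00931).

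**Figure D3:**
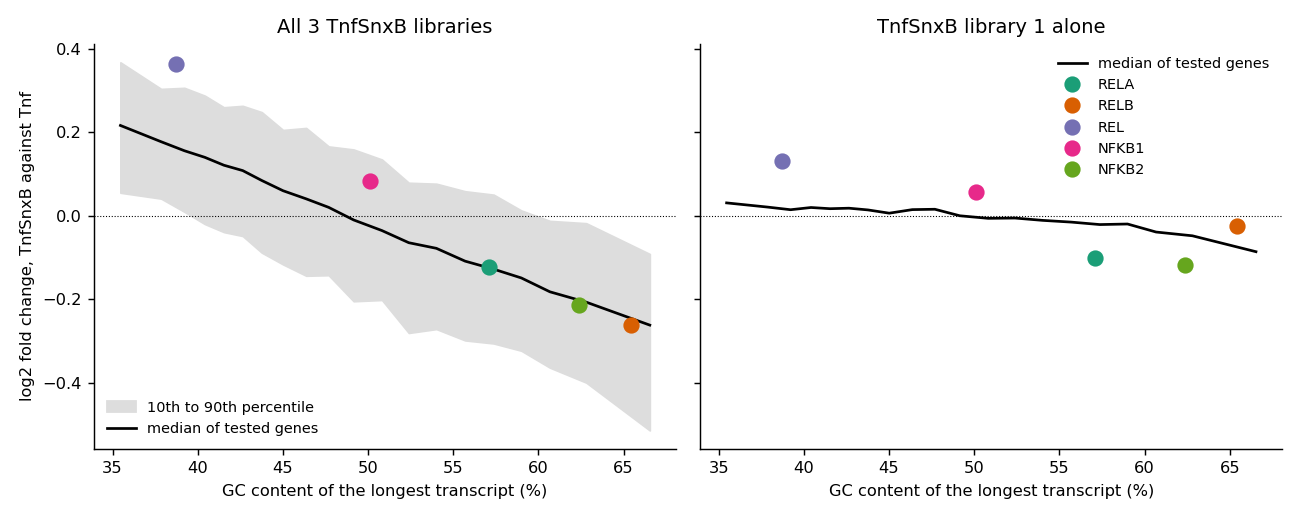
log2 fold change TnfSnxB against Tnf (y axis) by GC content of the longest transcript (x axis, percent), with a line for the median of tested genes in bins of GC, grey for their 10th to 90th percentile (left panel) and a coloured point for each subunit gene. With all 3 TnfSnxB libraries (left) the line falls steadily with GC and RELA, RELB and NFKB2 lie on it while REL lies above it, and with TnfSnxB library 1 alone (right) the line is nearly flat and REL is at 0.13.

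Whether the inhibitor changed the size of the TNFα effect was tested with the interaction, the log2 change TnfSnxB against SnxB minus the log2 change Tnf against control. It called 0 of 5 subunit genes by edgeR, with 3 of 5 at an unadjusted p under 0.05 and 0 by DESeq2, which gave no adjusted p for 2 of them, against 2.50% of all tested genes called (0.891% higher and 1.61% lower). RELB had the largest difference of the family, -0.64 (95% interval -1.08 to -0.20, adjusted p = 0.0811, edgeR), and NFKB2 followed with -0.30 (95% interval -0.50 to -0.10, adjusted p = 0.0716). REL went the other way, 0.29 (95% interval 0.02 to 0.56, adjusted p = 0.178, edgeR). NFKB1 differed by -0.01 with a narrow interval of -0.18 to 0.16, so a change of its TNFα effect beyond 0.884-fold to 1.12-fold lies outside this interval. Without TnfSnxB library 1, RELB, NFKB2 and REL were called (adjusted p = 0.000694, 0.00104 and 0.00616, edgeR). With TnfSnxB library 1 alone the differences were -0.40 for RELB, -0.20 for NFKB2 and 0.06 for REL, and with the correction for GC and length they were -0.37, -0.08 and 0.14, with no call in either.

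The same question can be put in CPM. The increment by TNFα in mean NFKB1 was 52.6 CPM with Senexin B and 49.7 CPM without it. For RELB it was 36.5 CPM with and 45.5 CPM without, which is 80.2% of the increment without the inhibitor. For NFKB2 the increments were 52.7 and 67.1 CPM, or 78.5%. These means take in the spread of the TnfSnxB libraries, where RELB had 48.8 CPM in library 1 and 40.04 and 37.2 CPM in the others. With the correction for GC and length, RELB and NFKB2 each differed between TnfSnxB and Tnf by -0.01 on the log2 scale. That correction also takes out any treatment effect that runs with GC.

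For REL the increment was 15.3 CPM with Senexin B and 9.61 CPM without it. The level of REL in TnfSnxB also moved with the library, from 27.5 CPM in library 1 to 34.7 CPM in library 2. For comparison, NFKBIA, which encodes IκBα, had increments of 143 and 244 CPM, or 58.7%, and its interaction was called (-0.82, adjusted p = 1.28e-05, edgeR).

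Levels of different genes can be set beside each other only per length, so CPM were divided by the kilobases of exon of each gene. The 5 genes summed to 64.7 ± 3.27 CPM per kilobase in TnfSnxB, 70.0 ± 0.354 in Tnf, 31.1 ± 0.354 in SnxB and 30.03 ± 0.834 in control libraries (SD, n = 3 each). The RELA share of that sum was 22.9 ± 1.14% in TnfSnxB, 23.0 ± 0.229% in Tnf, 46.8 ± 2.93% in SnxB and 49.3 ± 1.06% in control libraries. RELA had the largest length-scaled level of the family in both groups without TNFα, while NFKB2 did in both groups with it. The rank with TNFα turned with the length used: by the longest transcript RELA came first, at 27.1% against 25.2% for NFKB2 in TnfSnxB and at 27.3% against 27.1% in Tnf libraries, where their ranges overlapped.

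The RELB share was 21.3 ± 2.08% in TnfSnxB, 23.4 ± 0.851% in Tnf, 5.89 ± 0.679% in SnxB and 4.71 ± 1.18% in control libraries. NFKB2 made up 28.0% in TnfSnxB, 29.9% in Tnf, 20.4% in SnxB and 19.9% in control libraries. NFKB1 stayed between 20.8% and 24.0% in group means, at 24.0% in TnfSnxB, 20.8% in Tnf, 22.8% in SnxB and 22.1% in control libraries. Together the genes with a transactivation domain, RELA, RELB and REL, held 48.1% in TnfSnxB, 49.3% in Tnf, 56.8% in SnxB and 58.0% in control libraries. REL had the smallest share, 3.79% in TnfSnxB, 2.78% in Tnf, 4.11% in SnxB and 4.05% in control libraries, but its rank depends on the overlap with AC010733.2. Without the shared exon bases REL had 7.03% against 5.72% for RELB in SnxB and 6.93% against 4.57% in control libraries, so that RELB was then the smallest there.

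In TnfSnxB the order of length-scaled levels ran NFKB2, NFKB1, RELA, RELB and REL, and in Tnf it ran NFKB2, RELB, RELA, NFKB1 and REL, with RELA and RELB overlapping over libraries in both. RELB ranged from 12.2 to 16.1 CPM per kilobase in TnfSnxB libraries and so also overlapped NFKB1, at 15.2 to 16.0. In TnfSnxB library 1 RELB stood above both NFKB1, at 15.3, and RELA, at 15.0. In SnxB and in control the order was RELA, NFKB1, NFKB2, RELB and REL, and in control RELB and REL overlapped. Without the exon bases shared with AC010733.2, REL came before RELB in both, at 2.26 CPM per kilobase in SnxB and 2.14 in control libraries against 1.83 and 1.42 for RELB. The ratio of RELA to RELB was 1.08 ± 0.140 in TnfSnxB, 0.984 ± 0.0256 in Tnf, 8.04 ± 1.32 in SnxB and 10.8 ± 2.17 in control libraries. The ratio of NFKB1 to RELA, the genes of the classical dimer, was 1.05 ± 0.0448 in TnfSnxB, 0.904 ± 0.0196 in Tnf, 0.490 ± 0.0743 in SnxB and 0.449 ± 0.0407 in control libraries. The ratio of NFKB2 to RELB, the genes of the non-canonical dimer, was 1.32 ± 0.110 in TnfSnxB, 1.28 ± 0.0921 in Tnf, 3.49 ± 0.373 in SnxB and 4.40 ± 1.05 in control libraries. These are ratios of transcripts and not of proteins, and both the order and the ratios depend on the gene length used. By the longest transcript, mean shares in Tnf were 27.3% for RELA, 27.1% for NFKB2, 21.99% for NFKB1 and 21.4% for RELB. In TnfSnxB they were 27.1% for RELA and 25.2% for NFKB1, so that NFKB1 lay below RELA there.

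**Figure D4:**
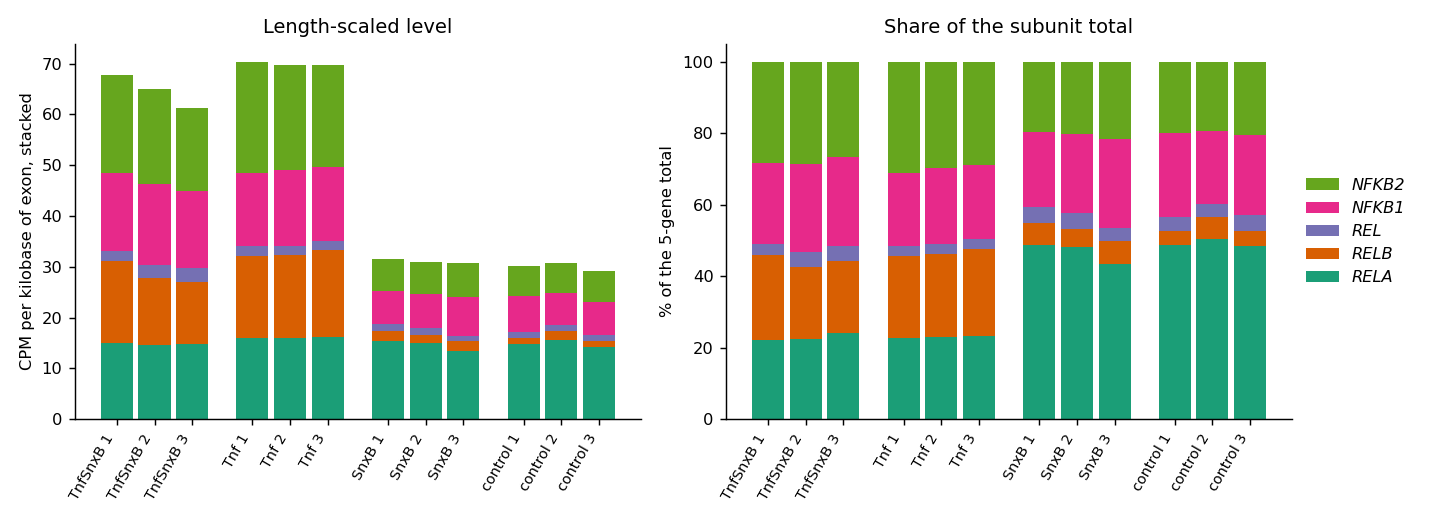
Length-scaled level of the 5 subunit genes, stacked in CPM per kilobase of exon (left), and the same as percent of their sum (right), 1 bar for each library, with groups in the order TnfSnxB, Tnf, SnxB and control on the x axis. The bars with TNFα are higher, 64.7 and 70.0 CPM per kilobase on average against 31.1 and 30.03 without it, and the RELA part of the right panel is near 23% in Tnf and 49.3% in control libraries.

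A list of 50 other genes of the pathway, all tested, gave the surroundings of these responses. In Tnf against control, 11 of 50 were higher and 0 lower, with a median log2 change of 0.07, against a median near 0 over all genes and the percentages called given above. Of the 6 genes of the IκB family, 5 were higher. NFKBIA averaged 271 ± 1.68 CPM in Tnf and 27.3 ± 1.94 CPM in control libraries (log2 3.31, SE 0.0585, adjusted p = 2.28e-26, edgeR). BCL3, an atypical IκB that binds p50 and p52 in the nucleus, averaged 4.71 ± 0.308 CPM in Tnf and 1.64 ± 0.306 CPM in control libraries (log2 1.56, adjusted p = 7e-07, edgeR). Of the 7 deubiquitinases and adaptors of feedback, 3 were higher.

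TNFAIP3 encodes A20, a ubiquitin-editing inhibitor of the pathway, and averaged 42.5 ± 1.63 CPM in Tnf and 3.70 ± 0.522 CPM in control libraries (log2 3.51, adjusted p = 5.04e-21, edgeR). Among 12 genes of the receptor complex, 2 were higher, namely BIRC3, which encodes a ubiquitin ligase of that complex (log2 2.25, adjusted p = 3.7e-11), and TRAF3, which restrains the kinase of the non-canonical arm (log2 0.62, adjusted p = 9.09e-11). MAP3K8, a kinase held by p105, was the 1 of 7 genes of precursor processing and turnover that rose (log2 1.61, adjusted p = 1.26e-10, edgeR). Of the 10 IKK and related kinase genes 0 were called by edgeR or by DESeq2, with 1 at an unadjusted p under 0.05. Of 8 coactivator and corepressor genes 0 were called, 0 at an unadjusted p under 0.05 and 0 by DESeq2. Over all 14822 tested genes edgeR called 2.02%, so 0 calls in lists this short are near that share and set neither role apart.

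In TnfSnxB against SnxB, 13 of 50 were higher and 4 lower, where 14.2% of all tested genes were called, with a median log2 change of 0.10. The lower calls went to 0, beside 10 or 11 higher, with only the compared groups, with TnfSnxB library 1 alone and without TnfSnxB 2, TnfSnxB 3 or SnxB 3, and DESeq2 gave 10 higher and 1 lower. NFKBIA averaged 174 ± 12.5 CPM in TnfSnxB and 30.8 ± 1.56 CPM in SnxB libraries (log2 2.49, adjusted p = 1.94e-22, edgeR), and TNFAIP3 averaged 36.4 ± 1.81 CPM in TnfSnxB and 3.74 ± 0.747 CPM in SnxB libraries (log2 3.26, adjusted p = 5.48e-19). BIRC3, MAP3K8, BCL3 and TRAF3 were also higher, by log2 2.57, 1.63, 1.60 and 0.48. In SnxB against control the count was 0 higher and 1 lower of 50, near the 2.03% called over all tested genes. The gene was RIPK1, the kinase of the receptor complex, with 34.0 ± 2.10 CPM in SnxB and 41.2 ± 1.18 CPM in control libraries (log2 -0.28, adjusted p = 0.025, edgeR). This call was lost with DESeq2 (adjusted p = 0.0523) and on leaving out either of 2 SnxB libraries or any control library (adjusted p = 0.0603 to 0.240). NFKBIA differed there by 0.17 (adjusted p = 0.363, edgeR).

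In TnfSnxB against Tnf, 8 of 50 were higher and 12 lower, with a median log2 difference of -0.06, where 27.2% of all tested genes were called (13.3% higher and 13.9% lower). With the correction for GC and length the counts were 4 higher and 5 lower, and with TnfSnxB library 1 alone 2 and 2. NFKBIA was lower (log2 -0.65, SE 0.0458, adjusted p = 1.74e-11, edgeR), as was NFKBIZ, which encodes a nuclear IκB, at 7.40 ± 0.528 CPM in TnfSnxB and 11.3 ± 0.722 CPM in Tnf libraries (log2 -0.57, adjusted p = 0.000515). Higher were BIRC2, a paralog of BIRC3, by log2 0.38, TBK1, an IKK-related kinase, by 0.33, TAB2, an adaptor of the kinase TAK1, by 0.28, and CHUK, which encodes IKKα, by 0.18. With the correction BIRC2 was at 0.21, TBK1 at 0.18 and TAB2 at 0.14, all still called, and CHUK changed sign, to -0.02. With TnfSnxB library 1 alone the calls of TBK1 (0.19, adjusted p = 0.174) and CHUK (0.06, adjusted p = 0.739, edgeR) were lost, and that of CHUK also without TnfSnxB 3 (adjusted p = 0.0642).

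Genes with the pattern most like each member were sought among 14133 genes with a mean of 1 CPM or more over all libraries by the root mean square difference of centred group means of log2(CPM + 0.5) over the 4 groups, an offset that understates the change of low genes. For RELB they were TNFAIP3 at 0.142, NFKBIA at 0.190, CXCL3 at 0.364 and TNFRSF9 at 0.446, so no gene lay within 0.1 of it. In TnfSnxB against Tnf these 4 had log2 differences of -0.22, -0.65, -0.77 and -0.15 in that order, against -0.26 for RELB. For NFKB2 they were EFNA1 at 0.0967, IRF1 at 0.106, CXCL6 at 0.108 and MAP3K8 at 0.118. CXCL6 averaged only 0.415 CPM in SnxB and 0.308 CPM in control libraries, and its fitted log2 change Tnf against control was 2.68, against 1.81 for NFKB2. For NFKB1 they were PLAU at 0.0603, PTGES at 0.0718, AP001258.4 at 0.0780 and GREM1 at 0.0795, and 4 genes lay within 0.1. PLAU averaged 0.594 CPM in SnxB and 0.418 CPM in control libraries, with a fitted log2 change Tnf against control of 2.06, against 1.14 for NFKB1. Like PLAU and CXCL6, GREM1 and CXCL3 averaged under 1 CPM in both groups without TNFα and passed the level filter through the groups with it. For REL, with the smallest change of the 4, 12 genes lay within 0.1, led by APLF at 0.0378, NUAK2 at 0.0446, ZC3H12C at 0.0465 and SSTR2 at 0.0591. The 4 genes nearest to each member were the same with levels scaled by library totals.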

How the data were processed

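Bulk RNA sequencing of HEK293 cells gave 12 libraries, made with a TruSeq kit per the labels' protocols. The authors deposited raw read counts per gene symbol, with 1 column for each library and no normalization. Per the submitters' processing notes, the build was hg38 (GRCh38) and the tools were STAR 2.4, featureCounts from Subread 1.4.6 and SAMtools 1.2. Which annotation and strand setting were used is not given in the sources used here, so reads of overlapping genes may be split or lost. Counts were filtered with filterByExpr, scaled by TMM and fitted with edgeR 4.0.16 in R 4.3.3 (group means, all 12 libraries, quasi-likelihood F test, two-sided, Benjamini-Hochberg over 14822 genes), after the procedure was tested on simulated data. The simulated data held neither a trend with GC nor a library set apart, so they do not bear on those features of the TnfSnxB libraries. DESeq2 1.42.0 was an alternative. Intervals are at 95%. Exon lengths and GC content came from GENCODE 29. The 5 members were named in every comparison, with up to 6 called pathway genes of smallest adjusted p and NFKBIA. Members and lists were chosen with earlier results of these data known. Other alternatives were median-of-ratios size factors, no filter, a replicate block, a 1.5-fold threshold, a correction for GC and length, only the compared groups, TnfSnxB library 1 alone, other gene lengths, and leaving out each library. Chi-square per degree of freedom between libraries of a group was 1.07 or more, and all 12 were counted separately.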

Additional observations from a re-analysis of the deposited data

Results flagged for a closer look

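By edgeR's test of the difference itself, 3 of the 50 pathway genes were called for a TNFα effect that differed with Senexin B, against 2.50% of all 14822 tested genes. None of these is a subunit gene, and the calls of SHARPIN and BIRC2 did not hold under several alternatives given below. NFKBIA had a difference of -0.82 on the log2 scale (adjusted p = 1.28e-05), with a TNFα effect of 2.49 with Senexin B and 3.31 without it. The call of NFKBIA was lost only when the difference had to be at least 1.5-fold. SHARPIN, a subunit of the linear ubiquitin ligase, had a difference of -0.41 (adjusted p = 0.0363), and averaged 26.4 ± 2.23 CPM in TnfSnxB, 31.0 ± 2.48 CPM in Tnf, 31.7 ± 0.635 CPM in SnxB and 28.1 ± 1.38 CPM in control libraries (SD, n = 3 each). BIRC2, which encodes the ubiquitin ligase cIAP1, had a difference of 0.37 (adjusted p = 0.0296), and averaged 53.6 ± 3.38 CPM in TnfSnxB, 41.6 ± 0.377 CPM in Tnf, 38.6 ± 0.770 CPM in SnxB and 38.4 ± 1.45 CPM in control libraries. With the correction for GC and length, SHARPIN was at -0.11 (adjusted p = 0.788) and BIRC2 at 0.19 (adjusted p = 0.333), and with TnfSnxB library 1 alone they were at -0.32 (adjusted p = 0.559) and 0.27 (adjusted p = 0.528). The calls of SHARPIN and of BIRC2 were each lost on leaving out 10 of the 12 libraries in turn (BIRC2 adjusted p = 0.0635 to 0.118, SHARPIN 0.0716 to 0.128, edgeR). In the fits that lost the call, the differences were -0.45 to -0.34 for SHARPIN and 0.33 to 0.38 for BIRC2.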

How the results depend on the processing

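The count of subunit genes called kept within 1.5 times its value under every alternative for Tnf against control (4; 4 to 5 on leaving out 1 library), TnfSnxB against SnxB (4) and SnxB against control (0). For TnfSnxB against Tnf (3 called) it was 0 with the 1.5-fold threshold, 1 with the correction for GC and length, 0 with TnfSnxB library 1 alone, and 1 to 4 on leaving out 1 library, with the extremes without TnfSnxB 3 and 1. For the interaction (0 called) it was 1 with no filter and 0 to 3 on leaving out 1 library. Pathway genes called were 11 in Tnf against control, and 5 with the 1.5-fold threshold. In TnfSnxB against SnxB there were 17, and 11 with DESeq2, 5 with the threshold, 11 with only the compared groups, 10 with TnfSnxB library 1 alone and 11 to 28 on leaving out 1 library. In SnxB against control there was 1, and 0 with DESeq2 and the threshold, 2 with only the compared groups and with TnfSnxB library 1 alone, and 0 to 2 on leaving out 1 library. In TnfSnxB against Tnf there were 20, and 13 with DESeq2, 0 with the threshold, 9 with the correction, 13 with only the compared groups, 4 with TnfSnxB library 1 alone, and 9 to 30 on leaving out 1 library. In the interaction there were 3, and 5 with no filter, 7 with the replicate block, 0 with the threshold, 1 with the correction, 1 with TnfSnxB library 1 alone, and 1 to 21 on leaving out 1 library. The highest of these ranges came without TnfSnxB library 1. Same-numbered libraries showed little correlation of their deviations from group means (-0.0402 to 0.0941), and the block changed no call of a subunit gene. These correlations could not exclude pairing, because chi-square per degree of freedom within groups other than TnfSnxB was only 1.07 to 1.59, not far above counting error. Over the whole table the calls were 300, 2106, 301, 4029 and 370 in the 5 comparisons in the order above, and ran over the alternatives from 38 to 858, 36 to 2203, 19 to 864, 28 to 4163 and 0 to 736, and on leaving out 1 library from 177 to 874, 512 to 5391, 172 to 879, 1869 to 6769 and 3 to 4534. Signs turned for RELA in TnfSnxB against SnxB (-0.029 without SnxB 3, up to 0.065 on leaving out 1 library), in SnxB against control (0.032 without SnxB 3 and 0.0093 without control 2, from -0.063), in TnfSnxB against Tnf (0.0032 with the correction) and in the interaction (0.035 with the correction), for CHUK in TnfSnxB against Tnf (-0.017 with the correction), and for NFKB1 in the interaction (0.0085 with the correction, and -0.060 to 0.054 on leaving out 1 library, above 0 without TnfSnxB 3, Tnf 2, SnxB 3, control 2 or control 3). The cause was not tested. With the length of the longest transcript, shares for TnfSnxB, Tnf, SnxB and control were 27.1%, 27.3%, 51.9% and 54.4% for RELA, 3.05%, 2.24%, 3.11% and 3.05% for REL, and 25.2%, 27.1%, 17.3% and 16.8% for NFKB2, and were 25.2% and 21.99% for NFKB1 in TnfSnxB and Tnf, and 21.4% and 5.04% for RELB in Tnf and SnxB. Without the exon bases shared with AC010733.2, an alternative chosen after seeing the data, REL had 6.49%, 4.80%, 7.03% and 6.93% for TnfSnxB, Tnf, SnxB and control, and RELA 22.6% in Tnf and 47.8% in control. DESeq2 gave no adjusted p for RELB and REL in the interaction.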
